A study of Mus musculus with 24 samples.

Results

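The genes described are 32 genes of dendritic cell identity and maturation, taken as a fixed list of symbols from the 49315 genes counted in 24 mouse brain tumours. All 32 were found by symbol, and all 32 were among the 22280 genes that passed the filter on low counts. The tumours grew from CT-2A-dmEGFRvIII-Firefly Luciferase (CT-vIII) glioma cells, a mouse line transduced with mouse EGFR variant III and luciferase, placed in the right brain hemisphere. From day 6 to day 9 after implantation a pump infused 1 of 4 treatments into the tumour at 0.5 µl/h for 72 h, and tumours were taken at the end of infusion (day 0) or 3 days later (day 3). The combination group received D2C7-IT (0.2 µg), an immunotoxin against EGFR and its variant III, with aCD40, an agonist antibody to the CD40 receptor (10 to 300 µg). The D2C7-IT and aCD40 groups received 1 of the agents, and the vehicle group received 2% mouse serum albumin in saline with 100 µg of rat IgG2a. Each treatment had 3 tumours at each day, listed by replicate number throughout, and p-values measure the spread between tumours of a group. Unless stated otherwise, this spread was estimated over all 24 tumours together, so each p also carries that of groups not compared. Which aCD40 dose a tumour received is not stated in the labels, and each value comes from unsorted tissue of tumours of 1 transplanted line.

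Conventional dendritic cells take up antigen, move to lymph nodes and prime T cells. The type 1 subset depends on the transcription factors Batf3 and Irf8, carries Xcr1 and Clec9a, and cross-presents material from dead cells to CD8 T cells, a role that has made it a centre of tumour immunology. On maturation, which CD40 ligation can drive, dendritic cells raise Fscn1 and Cd83 and can secrete interleukin 12, whose p40 subunit is encoded by Il12b. Healthy brain parenchyma holds few dendritic cells, and gliomas draw in more together with monocytes and macrophages.

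Total counts ran from 24697576 to 48119840 per library. A total of 3 libraries stood apart from the other 21, namely vehicle day 3 replicates 2 and 3 and aCD40 day 3 replicate 1. Egfr, the gene whose variant the glioma cells carry, was at 283 to 343 CPM (counts-per-million, scaled for library composition) in these 3 and at 13.1 to 50.8 CPM in the other 21. They are called the Egfr-high libraries here. All 6 cell cycle markers of a fixed list lay above all 21 other libraries (summed level 914 to 1190 against 10.2 to 125 CPM). So did 5 of 8 monocyte and macrophage markers (1120 to 1460 against 124 to 380 CPM). Of lymphocyte markers, 5 of 8 for T cells (57 to 99.2 against 4.63 to 68.8 CPM) did, and 5 of 6 for NK cells (31.7 to 63.4 against 0.573 to 14.8 CPM). For B cells 0 of 5 markers did, for neutrophils 0 of 6 and for microglia 1 of 8. No marker in the cell cycle, monocyte and macrophage, T cell or NK cell lists was at 0 in every tumour of any group. The neutrophil marker Ly6g was at 0 in all vehicle tumours and in all D2C7-IT tumours of day 3. Of 6 neuron markers, 4 lay below all 21 others (1450 to 2520 against 3200 to 6860 CPM). Of the 32 dendritic cell genes, 12 lay above all 21 others in the 3 libraries (Clec9a, Batf3, Itgax, Wdfy4, Ly75, Fscn1, Il15, Il15ra, Il27, Cd1d1, Kmo and Tmem123) and 0 lay below. Among all genes tested 26.1% lay above and 18.9% below. Fold changes, medians and counts of members at an unadjusted p that use the vehicle or aCD40 group of day 3 are therefore given with and without these libraries. This step was chosen after the data were seen and leaves 1 vehicle and 2 aCD40 tumours at day 3. Folds of Apol7c that use the remaining vehicle tumour are not given, since that tumour has no read of it. Apol7c is still among the members counted at an unadjusted p without these libraries, wherever it passed. In bulk tissue, fewer cells of a type and less RNA per cell cannot be told apart.

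**Figure D1:**
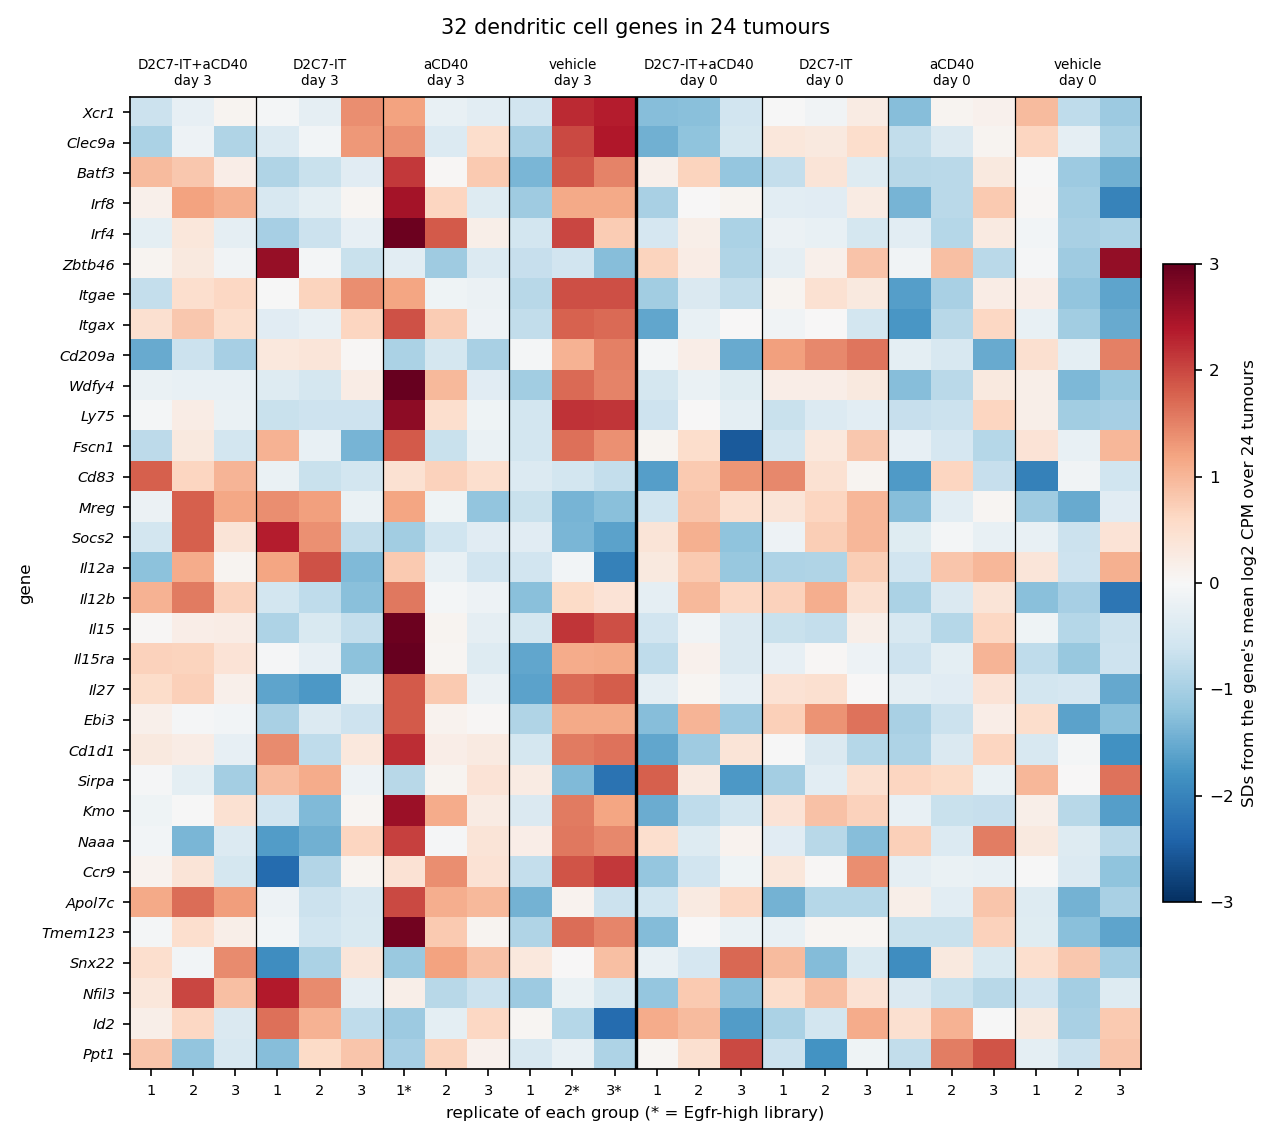
The 32 dendritic cell genes (rows) in the 24 tumours (columns, 3 replicates per group, day 3 groups on the left and day 0 groups on the right). Colour gives the distance of a tumour's log2 CPM from the gene's mean over 24 tumours, in SDs, and the columns marked with an asterisk are the 3 Egfr-high libraries, in which 12 genes lie above all 21 other libraries.

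The list spanned a wide range of levels. The median over 24 tumours was under 1 CPM for 7 members, 1 to 10 CPM for 12, 10 to 100 CPM for 11 and above 100 CPM for 2, and 29 members had at least 1 read in every tumour. Per kilobase of exon, Fscn1 (median 93.4 CPM per kb) and Sirpa (78.6) stood highest, followed by Id2 (29.4) and Ppt1 (24.9). These 4 are also known outside dendritic cells, Fscn1 and Sirpa in neurons among others, and the neuron markers summed to 1450 to 6860 CPM over the 24 tumours. Among the lowest were genes restricted to dendritic cells, with medians of 0.0433 CPM per kb for Xcr1, 0.0686 for Cd209a and 0.129 for Clec9a. Counts of Xcr1 ran from 1 to 115 reads per tumour and those of Cd209a from 0 to 22, which limits the precision of both. The kit does not mark strand, and exons of 7 members (Clec9a, Ly75, Il27, Ebi3, Ccr9, Snx22 and Ppt1) overlap those of another gene, so part of their reads may belong to that gene.

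Type 1 genes come first. Xcr1 encodes the receptor for the chemokine Xcl1 and is a defining marker of type 1 dendritic cells. At day 3 Xcr1 stood at 0.0974, 0.173 and 0.257 CPM in combination tumours, 0.219, 0.168 and 1.09 in D2C7-IT tumours, 0.909, 0.178 and 0.156 in aCD40 tumours, against 0.109, 2.61 and 2.96 in vehicle tumours. Xcr1 at day 0 stood at 0.0271, 0.0289 and 0.108 CPM in combination tumours, 0.23, 0.208 and 0.313 in D2C7-IT tumours, 0.0267, 0.256 and 0.272 in aCD40 tumours, against 0.686, 0.0814 and 0.0441 in vehicle tumours. The day 3 vehicle group overlapped every other group of that day, since its replicate 1 was near the low end and its Egfr-high replicates 2 and 3 were the highest of all 24 tumours. On the log2 scale, where 1 is a doubling, the day 3 fold change against vehicle was -3.41 ± 1.12 in combination tumours (± standard error, edgeR quasi-likelihood test, p adjusted over all genes tested = 0.11). It was -1.90 ± 1.02 in D2C7-IT tumours (adjusted p = 0.225) and -2.19 ± 1.04 in aCD40 tumours (adjusted p = 0.998). Without the 3 Egfr-high libraries these were 0.71, 2.20 and 0.63, each against 1 vehicle tumour with 4 reads, and none passed the threshold. At day 0 all 3 combination tumours lay below all 3 D2C7-IT tumours (log2 fold change -2.05 ± 1.27, adjusted p = 1).

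Clec9a encodes a lectin receptor that senses the actin of dead cells. Its day 3 levels were 0.219, 0.444 and 0.232 CPM in combination tumours, 0.356, 0.471 and 1.43 in D2C7-IT tumours, 1.51, 0.355 and 0.782 in aCD40 tumours, against 0.217, 2.45 and 3.34 in vehicle tumours. Its day 0 levels were 0.136, 0.173 and 0.324 CPM in combination tumours, 0.666, 0.644 and 0.782 in D2C7-IT tumours, 0.267, 0.352 and 0.545 in aCD40 tumours, against 0.852, 0.407 and 0.22 in vehicle tumours. The highest 3 of the 24 tumours were the Egfr-high libraries, and the lowest 2 were combination tumours of day 0. The day 3 log2 fold change of combination against vehicle tumours was -2.73 ± 0.78 (edgeR adjusted p = 0.109, DESeq2 adjusted p = 0.0162), and without the Egfr-high libraries it was 0.48 (adjusted p = 0.913). At day 0, which holds no Egfr-high library, the combination tumours all lay below the D2C7-IT tumours (log2 fold change -1.69 ± 0.79, adjusted p = 1).

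Batf3, the transcription factor that type 1 dendritic cells require, varied far less. It stood at 2.85, 2.71 and 2.16 CPM in combination tumours, 1.45, 1.58 and 1.79 in D2C7-IT tumours, 4.35, 2.04 and 2.68 in aCD40 tumours, against 1.22, 3.97 and 3.44 in vehicle tumours at day 3. Batf3 at day 0 stood at 2.14, 2.57 and 1.32 CPM in combination tumours, 1.56, 2.33 and 1.75 in D2C7-IT tumours, 1.49, 1.5 and 2.25 in aCD40 tumours, against 2.01, 1.36 and 1.19 in vehicle tumours. All 3 combination tumours of day 3 lay above all 3 D2C7-IT tumours of that day, with a log2 fold change of 0.68 ± 0.38 (adjusted p = 1). The fold changes of Xcr1 and Clec9a there had the other sign, -1.51 ± 1.09 and -1.34 ± 0.76. Against vehicle at day 3 the fold changes of Batf3 were -0.16 ± 0.38 for the combination, -0.84 ± 0.38 for D2C7-IT and 0.07 ± 0.38 for aCD40, and without the Egfr-high libraries 1.10, 0.41 and 0.98.

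Maturation genes follow. Fscn1 encodes fascin, which bundles actin in the processes of mature dendritic cells and is also made by neurons and many tumour cells. It was at 244, 320 and 257 CPM in combination tumours, 385, 281 and 209 in D2C7-IT tumours, 470, 250 and 282 in aCD40 tumours, against 258, 449 and 417 in vehicle tumours at day 3. Fscn1 at day 0 was at 303, 337 and 158 CPM in combination tumours, 258, 323 and 362 in D2C7-IT tumours, 279, 262 and 238 in aCD40 tumours, against 329, 280 and 381 in vehicle tumours. The highest 3 tumours were again the Egfr-high libraries, and the log2 fold change against vehicle that lay furthest from 0 was -0.45 ± 0.30 (combination, day 3, adjusted p = 0.35), which became 0.11 without them. All 3 aCD40 tumours of day 0 lay below all 3 vehicle tumours of that day, with a log2 fold change of -0.34 ± 0.30 (adjusted p = 1).

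Cd83 encodes a surface protein of mature dendritic cells that activated B cells also carry. At day 3 it was at 50.4, 32.9 and 38 CPM in combination tumours, 24.1, 20 and 20.9 in D2C7-IT tumours, 30.7, 33.6 and 31 in aCD40 tumours, against 22.1, 20.9 and 19.8 in vehicle tumours. Cd83 at day 0 was at 13.9, 34.7 and 42.6 CPM in combination tumours, 44.2, 30.6 and 26.7 in D2C7-IT tumours, 13.6, 32.8 and 19.9 in aCD40 tumours, against 11.9, 24.6 and 20.6 in vehicle tumours. On day 3 the combination tumours lay above the D2C7-IT tumours and above the vehicle tumours, the aCD40 tumours lay above the vehicle tumours, and the D2C7-IT and vehicle groups overlapped. The log2 fold change of the combination was 0.95 ± 0.35 against vehicle (adjusted p = 0.127) and 0.90 ± 0.35 against D2C7-IT (adjusted p = 1), and that of aCD40 against vehicle was 0.60 ± 0.35 (adjusted p = 0.998). The Egfr-high libraries did not stand apart for Cd83, and without them the values against vehicle were 0.90 for the combination and 0.57 for aCD40. At day 0 the D2C7-IT tumours lay above the vehicle tumours (0.83 ± 0.35, adjusted p = 0.988), and the combination and aCD40 tumours were spread over the whole range.

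Il12b, the shared p40 subunit of interleukins 12 and 23, had the widest swings among the maturation genes. At day 3 it was at 7.3, 16.1 and 4.25 CPM in combination tumours, 0.575, 0.403 and 0.161 in D2C7-IT tumours, 16.5, 1.3 and 1.12 in aCD40 tumours, against 0.163, 3.55 and 2.67 in vehicle tumours. Il12b at day 0 was at 0.922, 6.45 and 3.78 CPM in combination tumours, 4.27, 7.83 and 3.03 in D2C7-IT tumours, 0.294, 0.703 and 2.63 in aCD40 tumours, against 0.166, 0.271 and 0 in vehicle tumours. At day 0 each treated group lay above the vehicle group without overlap, aCD40 by the narrowest gap, and at day 3 the combination group lay above both the D2C7-IT and the vehicle groups. The day 0 log2 fold change against vehicle was 4.54 ± 1.33 for the combination, 4.99 ± 1.35 for D2C7-IT and 2.94 ± 1.28 for aCD40. The adjusted p were 1 by edgeR and 0.0405 by DESeq2 for the combination, 0.328 and 0.00269 for D2C7-IT, and 1 and 1 for aCD40. Vehicle tumours of day 0 held 7, 10 and 0 reads of Il12b, so the size of these folds rests on few reads. In D2C7-IT tumours the gene was lower at day 3 than at day 0 in every tumour, with a log2 fold change of -3.74 ± 1.24 (adjusted p = 1). In combination tumours the day 3 to day 0 fold change was 1.31 ± 1.10 (adjusted p = 1). The D2C7-IT effect over vehicle differed between the days by -7.48 ± 1.79 on the log2 scale (day 3 minus day 0, edgeR adjusted p = 0.276, DESeq2 adjusted p = 0.00428), and by -3.78 without the Egfr-high libraries. At day 3 the combination exceeded D2C7-IT alone by 4.61 ± 1.28 (adjusted p = 1, DESeq2 adjusted p = 0.0685). Neither group holds an Egfr-high library, but the standard error and p use a spread estimated over all 24 libraries.

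**Figure D2:**
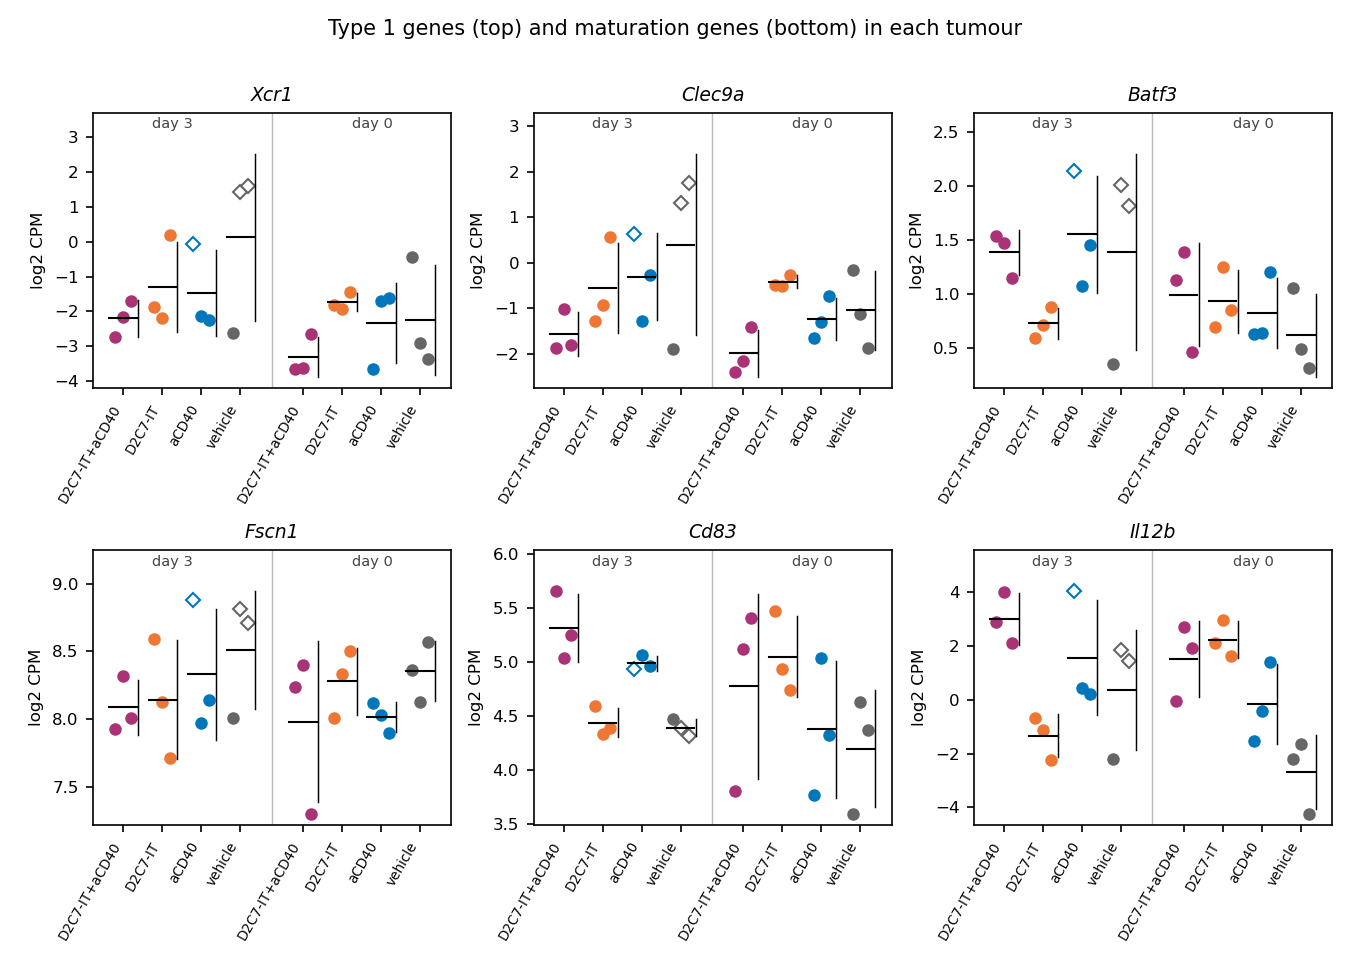
Level of the 3 type 1 genes (upper row) and the 3 maturation genes (lower row) in each tumour, as log2 CPM (prior count 2), with day 3 groups left of the grey line and day 0 groups right of it. Horizontal lines are group means, vertical bars are 1 SD to each side (n = 3) and open diamonds are the Egfr-high libraries, which hold the highest Clec9a, Batf3 and Fscn1 levels, while Cd83 in the 3 vehicle tumours of day 3 lies between 19.8 and 22.1 CPM.

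The contrast of both gene groups was read per tumour as the mean log2 CPM of Fscn1, Cd83 and Il12b minus that of Xcr1, Clec9a and Batf3. At day 3 this difference was 6.26 ± 0.32 in combination tumours, 4.12 ± 1.21 in D2C7-IT tumours, 5.04 ± 0.24 in aCD40 tumours and 3.78 ± 0.91 in vehicle tumours (SD, n = 3 each). At day 0 it was 6.20 ± 0.62 in combination tumours, 5.60 ± 0.31 in D2C7-IT tumours, 4.99 ± 0.04 in aCD40 tumours and 4.17 ± 0.95 in vehicle tumours. The combination had the highest mean at both days. The vehicle mean was lowest at both, but at day 3 it rests on the Egfr-high replicates 2 and 3 (3.43 and 3.10), and replicate 1 stood at 4.81, above the D2C7-IT mean. The aCD40 tumours of day 3 stood at 5.05 in the Egfr-high replicate 1 and at 5.27 and 4.80 in the others. At day 3 the maturation level itself was 5.47 ± 0.34 in combination tumours, 3.75 ± 0.44 in D2C7-IT tumours, 4.96 ± 0.86 in aCD40 tumours and 4.42 ± 0.87 in vehicle tumours. Most of the gap between combination and D2C7-IT tumours lay in Il12b, with mean log2 CPM of 3.0 and -1.34. Cd83 was at 5.32 and 4.44 in these groups, and Fscn1 at 8.09 and 8.14. The type 1 level at day 3 was -0.79 ± 0.23 in combination tumours, -0.37 ± 0.80 in D2C7-IT tumours, -0.08 ± 0.88 in aCD40 tumours and 0.64 ± 1.76 in vehicle tumours. Without the Egfr-high libraries the remaining vehicle tumour stood at 3.42 for maturation, under the D2C7-IT mean but above D2C7-IT replicate 3 (3.29). For type 1 it stood at -1.39, the lowest tumour of day 3. The 2 remaining aCD40 tumours stood at 4.49 and 4.44 for maturation and at -0.78 and -0.36 for type 1. The order of the type 1 levels therefore turned. At day 0 the maturation level was 4.76 ± 0.71 in combination tumours, 5.19 ± 0.23 in D2C7-IT tumours, 4.07 ± 0.56 in aCD40 tumours and 3.29 ± 0.41 in vehicle tumours. Between D2C7-IT and vehicle tumours of day 0 most of the gap again lay in Il12b (2.24 and -2.69). Cd83 was at 5.05 and 4.19 there, and Fscn1 at 8.28 and 8.35. The type 1 level at day 0 was -1.43 ± 0.22 in combination tumours, -0.41 ± 0.12 in D2C7-IT tumours, -0.91 ± 0.59 in aCD40 tumours and -0.89 ± 0.93 in vehicle tumours. The high contrast of the combination at day 0 came with the lowest type 1 level of the day and a maturation level under that of D2C7-IT. No test is given for these levels, since the genes were chosen with results known and 3 tumours against 3 cannot go below an exact p of 0.1.

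**Figure D3:**
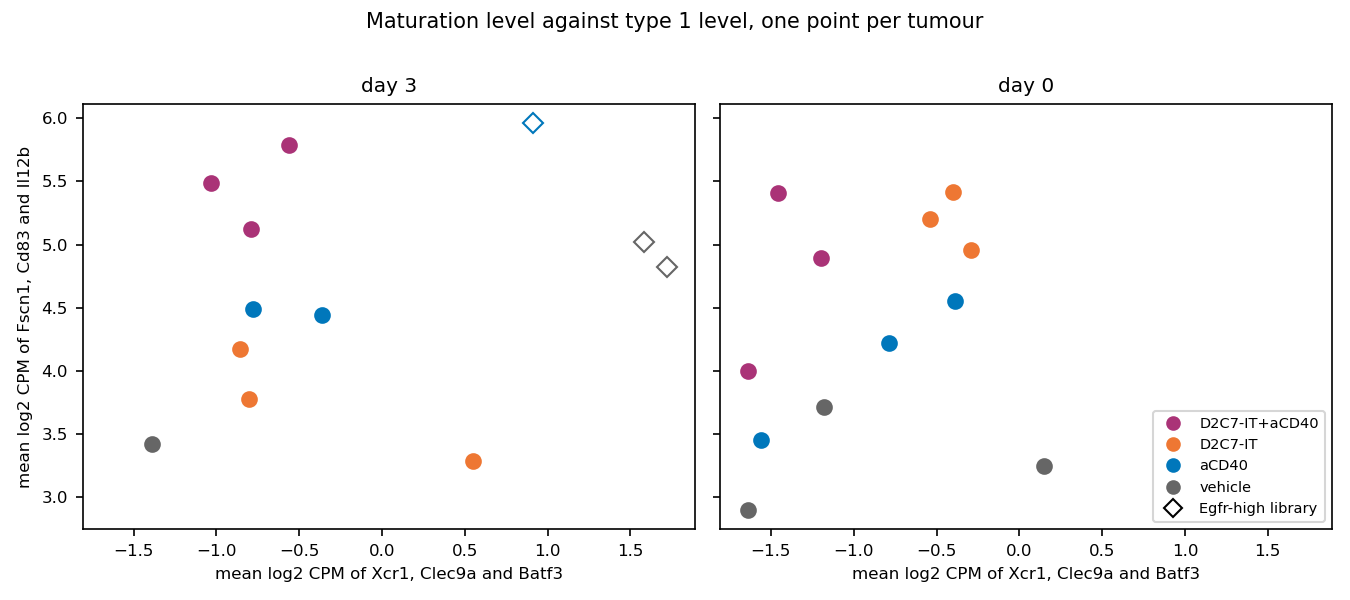
Mean log2 CPM of Fscn1, Cd83 and Il12b (vertical axis) against that of Xcr1, Clec9a and Batf3 (horizontal axis), 1 point per tumour, at day 3 (left) and day 0 (right). Combination tumours sit at the upper left at day 3 (maturation 5.47 and type 1 -0.79 on average), and the 3 Egfr-high libraries, drawn as open diamonds, sit at the far right.

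The 250 bases before the start site are shown for the contrasted genes that the RefSeq table of mouse promoters (GRCm38.p6) holds, together with Apol7c, which was added after its values were seen because its groups separated most by aCD40. The type 1 windows are Xcr1 at chr9:123862030-123862279 (minus strand), Clec9a at chr6:129408612-129408861 (plus strand) and Batf3 at chr1:191098164-191098413 (plus strand). The maturation windows are Fscn1 at chr5:142960105-142960354 (plus strand) and Il12b at chr11:44399813-44400062 (plus strand), and Apol7c lies at chr15:77533316-77533565 (minus strand). Each is written 5′ to 3′ along the gene, and capitals mark matches to the motifs searched.
Xcr1: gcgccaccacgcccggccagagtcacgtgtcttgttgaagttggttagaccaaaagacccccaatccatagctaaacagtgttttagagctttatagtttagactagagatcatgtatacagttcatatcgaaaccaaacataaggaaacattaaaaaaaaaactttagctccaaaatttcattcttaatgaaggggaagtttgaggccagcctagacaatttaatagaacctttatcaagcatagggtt
Clec9a: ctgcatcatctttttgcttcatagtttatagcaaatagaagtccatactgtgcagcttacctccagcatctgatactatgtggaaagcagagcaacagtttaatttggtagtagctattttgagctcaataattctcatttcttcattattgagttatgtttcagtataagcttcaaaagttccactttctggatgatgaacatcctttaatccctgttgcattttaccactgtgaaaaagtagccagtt
Batf3: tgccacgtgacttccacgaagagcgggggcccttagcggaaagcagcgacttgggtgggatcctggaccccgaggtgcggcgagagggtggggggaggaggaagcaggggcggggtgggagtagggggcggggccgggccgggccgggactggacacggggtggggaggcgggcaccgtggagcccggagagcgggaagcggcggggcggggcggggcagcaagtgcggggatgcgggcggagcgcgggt
Fscn1: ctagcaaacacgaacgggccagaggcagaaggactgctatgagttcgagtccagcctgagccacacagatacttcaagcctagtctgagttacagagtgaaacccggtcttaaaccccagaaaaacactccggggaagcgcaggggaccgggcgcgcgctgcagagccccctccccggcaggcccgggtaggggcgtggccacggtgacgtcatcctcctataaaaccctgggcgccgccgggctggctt
Il12b: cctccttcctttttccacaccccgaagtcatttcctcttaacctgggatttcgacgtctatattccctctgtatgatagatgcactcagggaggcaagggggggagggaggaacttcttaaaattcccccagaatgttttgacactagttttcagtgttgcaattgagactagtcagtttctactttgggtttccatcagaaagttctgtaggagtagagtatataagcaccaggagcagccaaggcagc
Apol7c: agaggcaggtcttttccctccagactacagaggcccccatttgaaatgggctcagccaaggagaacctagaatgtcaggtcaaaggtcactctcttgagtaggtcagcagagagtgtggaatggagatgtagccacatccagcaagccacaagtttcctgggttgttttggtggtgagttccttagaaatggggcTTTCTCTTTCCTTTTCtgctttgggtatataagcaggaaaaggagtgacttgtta

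The motifs were searched on both strands of these windows for all 25 members with an entry and for all 32851 windows of the table. The interferon response core (GAAA, any 2 bases, GAAA) was found in 1 member, Apol7c, as 2 overlapping matches on the opposite strand that begin 55 and 49 bases before the start site, and 2.98% of all windows hold it. The ETS-IRF composite (GGAA, any 2 bases, GAAA) was found in 0 members (2.3% of all windows), the kappa B motif (GGG, any 2 bases, TTTCC) in 0 members (1.41%) and the AP-1 motif TGANTCA in 3 members, Il15ra, Itgax and Zbtb46 (6.75%). The other windows shown hold none of these letters in this window, and nothing follows from that about any factor. Cd83, Sirpa, Cd1d1, Il27, Itgae, Socs2 and Il15 have no window shown or searched.

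Among the other transcription factors, Irf8, which dendritic cells share with microglia and macrophages, averaged 69.8 ± 22.9 CPM in combination tumours, 34.3 ± 6.39 in D2C7-IT tumours, 96.8 ± 89.9 in aCD40 tumours, against 62 ± 36.6 in vehicle tumours at day 3 (SD, n = 3 each). Its combination tumours all lay above its D2C7-IT tumours at day 3 (log2 fold change 1.02 ± 0.66, adjusted p = 1), and its combination tumours of day 3 all lay above those of day 0 (1.03 ± 0.66, adjusted p = 1). The 8 microglia markers summed to 404 to 458 CPM in combination tumours and 377 to 556 CPM in D2C7-IT tumours of day 3, with 2 of 8 higher in the combination. The monocyte and macrophage markers, 7 of 8 higher, summed to 231 to 320 and 201 to 256 CPM in these groups. The part of these cells in the Irf8 value was not tested. Irf4, a factor of type 2 dendritic cells and of activated lymphocytes, averaged 1.25 ± 0.455 CPM in combination tumours, 0.742 ± 0.269 in D2C7-IT tumours, 9.12 ± 8.84 in aCD40 tumours, against 3.79 ± 3.75 in vehicle tumours at day 3. Its D2C7-IT value there was -2.34 ± 0.79 on the log2 scale against vehicle (adjusted p = 0.0883) and -0.01 without the Egfr-high libraries. Zbtb46, a factor of conventional dendritic cells that endothelial cells also make, lay between 8.69 and 25 CPM in all tumours. Its combination tumours of day 3 lay above the aCD40 and the vehicle tumours of that day, by 0.26 ± 0.33 and 0.36 ± 0.33, and by 0.32 and 0.33 without the Egfr-high libraries.

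Nfil3 and Id2 act upstream of Batf3 in type 1 dendritic cell development and are active in many other cells. Nfil3 averaged 26.2 ± 10.3 CPM in combination tumours, 29.1 ± 15.5 in D2C7-IT tumours, 12.9 ± 3.3 in aCD40 tumours, against 11.9 ± 2.33 in vehicle tumours at day 3. Nfil3 averaged 13.2 ± 7.49 CPM in combination tumours, 20.4 ± 2.2 in D2C7-IT tumours, 11.5 ± 1.04 in aCD40 tumours, against 11.5 ± 1.69 in vehicle tumours at day 0. All 3 combination tumours of day 3 exceeded all aCD40 and all vehicle tumours of that day, and D2C7-IT tumours of day 0 exceeded the vehicle tumours. The log2 fold change against vehicle at day 3 was 1.15 ± 0.39 for the combination (adjusted p = 0.113) and 1.29 ± 0.39 for D2C7-IT (adjusted p = 0.0804, DESeq2 adjusted p = 0.0215), and it was 1.51 and 1.64 without the Egfr-high libraries. Id2 lay between 35.1 and 112 CPM in all tumours, with a day 3 fold change of 0.44 ± 0.34 in the combination and 0.71 ± 0.34 in D2C7-IT tumours, against vehicle, and of 0.06 and 0.31 without the Egfr-high libraries.

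The member whose groups followed aCD40 most closely was Apol7c, an apolipoprotein L gene that activated mouse dendritic cells express. At day 3 it was at 1.78, 3.77 and 2.09 CPM in combination tumours, 0.246, 0.101 and 0.141 in D2C7-IT tumours, 5.85, 1.63 and 1.38 in aCD40 tumours, against 0, 0.373 and 0.103 in vehicle tumours. Apol7c at day 0 was at 0.109, 0.492 and 0.844 CPM in combination tumours, 0, 0.0623 and 0.0625 in D2C7-IT tumours, 0.427, 0.192 and 1.13 in aCD40 tumours, against 0.166, 0 and 0.0441 in vehicle tumours. At day 3 all 6 tumours that received aCD40, alone or in combination, exceeded all 6 that did not. The day 3 log2 fold change against vehicle was 3.94 ± 1.04 for the combination (edgeR adjusted p = 0.108, DESeq2 adjusted p = 0.00652). It was 0.01 ± 1.10 for D2C7-IT (adjusted p = 0.995) and 4.16 ± 1.05 for aCD40 (adjusted p = 0.559, DESeq2 adjusted p = 0.0167). The combination exceeded D2C7-IT by 3.93 ± 1.05 at day 3 and 3.44 ± 1.19 at day 0 (adjusted p = 1 in both). Leaving out 1 library in turn gave 3.39 to 5.55 for the combination and 3.18 to 5.76 for aCD40, highest in both without vehicle replicate 2. Vehicle tumours of day 3 held 0, 16 and 4 reads, the first in the only vehicle library that is not Egfr-high, so no fold against vehicle is given without the Egfr-high libraries. At day 3 the gene was above its day 0 level in every tumour of the combination, D2C7-IT and aCD40 groups, with fold changes of 2.38 ± 0.95 in the combination, 1.89 ± 1.25 in D2C7-IT and 2.31 ± 0.94 in aCD40 tumours, the last at 1.34 without the Egfr-high library.

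Cd209a, a lectin related to human DC-SIGN that monocyte-derived dendritic cells carry, ran the other way at low counts. At day 3 it was at 0, 0.0493 and 0.0257 CPM in combination tumours, 0.164, 0.168 and 0.121 in D2C7-IT tumours, 0.0284, 0.0592 and 0.0261 in aCD40 tumours, against 0.109, 0.327 and 0.488 in vehicle tumours. Cd209a at day 0 was at 0.109, 0.145 and 0 CPM in combination tumours, 0.384, 0.457 and 0.531 in D2C7-IT tumours, 0.0801, 0.0639 and 0 in aCD40 tumours, against 0.189, 0.0814 and 0.485 in vehicle tumours. Combination and aCD40 tumours of day 3 all lay below the D2C7-IT and vehicle tumours of that day, and at day 0 the combination lay below D2C7-IT and aCD40 below vehicle. The combination tumours of day 3 held 3 reads in all against 37 in vehicle tumours, a ratio of 0.0815 (95% exact interval 0.0161 to 0.257, counting error only). For this contrast edgeR gave a log2 fold change of -3.47 ± 0.99 (adjusted p = 0.109, DESeq2 adjusted p = 0.0265). Against the 17 reads of the D2C7-IT tumours the ratio was 0.178 (0.0334 to 0.615). The aCD40 fold change against vehicle was -2.94 ± 0.95 at day 3 and -2.31 ± 0.95 at day 0 (adjusted p = 0.998 and 1), and without the Egfr-high libraries the day 3 values were -1.96 for the combination and -1.29 for aCD40.

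Ly75 encodes DEC-205, an endocytic receptor of cross-presenting dendritic cells. Ly75 at day 3 was at 4.26, 5.38 and 3.76 CPM in combination tumours, 2.44, 2.59 and 2.58 in D2C7-IT tumours, 46.4, 6.93 and 3.94 in aCD40 tumours, against 2.74, 29.9 and 29.1 in vehicle tumours. Ly75 at day 0 was at 2.55, 4.48 and 3.42 CPM in combination tumours, 2.48, 3.12 and 3.35 in D2C7-IT tumours, 2.4, 2.49 and 7.85 in aCD40 tumours, against 5.23, 1.76 and 1.85 in vehicle tumours. The 3 Egfr-high libraries were the highest of all 24, and the remaining 21 tumours lay between 1.76 and 7.85 CPM. The D2C7-IT tumours of day 3 lay below all vehicle tumours (-3.02 ± 0.85, edgeR adjusted p = 0.08, DESeq2 adjusted p = 0.00574), which became -0.10 without the Egfr-high libraries. The combination tumours of day 3 lay above the D2C7-IT tumours by 0.82 ± 0.80 (adjusted p = 1).

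The surface proteins Itgae (integrin alpha E, which marks some type 1 dendritic cells and resident T cells) and Itgax (CD11c) both had their highest means in vehicle tumours of day 3. Itgae averaged 1.33 ± 0.607 CPM in combination tumours, 2.02 ± 1.04 in D2C7-IT tumours, 1.55 ± 0.973 in aCD40 tumours, against 3.3 ± 2.36 in vehicle tumours at day 3. Itgax averaged 19.5 ± 3.69 CPM in combination tumours, 12.1 ± 7.05 in D2C7-IT tumours, 33.8 ± 31.8 in aCD40 tumours, against 40.4 ± 30.6 in vehicle tumours at day 3. Itgax averaged 7.18 ± 4.4 CPM in combination tumours, 8.93 ± 2.41 in D2C7-IT tumours, 8.66 ± 9.42 in aCD40 tumours, against 4.94 ± 3.18 in vehicle tumours at day 0. The Egfr-high vehicle libraries were the 2 highest of that group for both genes, and the combination fold change of Itgax against vehicle was -1.05 ± 0.88 with the Egfr-high libraries and 1.96 without them. Sirpa, the CD47 receptor of type 2 dendritic cells, macrophages and neurons, lay between 240 and 555 CPM, and its fold changes against vehicle ran from -0.36 ± 0.24 (D2C7-IT, day 0) to 0.50 ± 0.24 (D2C7-IT, day 3, or 0.14 without the Egfr-high libraries). Ccr9, the receptor for the chemokine Ccl25, lay between 0.219 and 2.03 CPM and was at -1.57 ± 0.47 in D2C7-IT against vehicle tumours of day 3 (DESeq2 adjusted p = 0.0188), and at -0.05 without the Egfr-high libraries.

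Of the antigen presentation and vesicle genes, Wdfy4, Cd1d1 and Tmem123 were highest in the Egfr-high libraries, and Snx22 and Ppt1 were not. Wdfy4, which type 1 dendritic cells need for cross-presentation, averaged 10.4 ± 0.108 CPM in combination tumours, 10.5 ± 2.74 in D2C7-IT tumours, 35.7 ± 35.3 in aCD40 tumours, against 23.4 ± 15 in vehicle tumours at day 3. All 3 D2C7-IT tumours of day 0 exceeded the vehicle tumours (fold change 0.76 ± 0.61, adjusted p = 1). Cd1d1, which presents lipids to NKT cells, averaged 2.23 ± 0.465 CPM in combination tumours, 3.26 ± 2.52 in D2C7-IT tumours, 5.34 ± 5.02 in aCD40 tumours, against 5.06 ± 3.21 in vehicle tumours at day 3. Both had their highest SD at day 3 in the aCD40 group, whose replicate 1 is an Egfr-high library. Tmem123, a membrane mucin, was at -1.16 ± 0.53 in D2C7-IT against vehicle tumours of day 3 and at 0.46 without the Egfr-high libraries, and at 0.78 ± 0.53 at day 0, where all D2C7-IT tumours exceeded the vehicle tumours. Snx22, a sorting nexin, and Ppt1, a lysosomal thioesterase, had narrow ranges, 6.7 to 14 and 80.6 to 108 CPM over the 24 tumours. Ppt1 reached 99.1 ± 8.07 CPM in combination tumours of day 0, above all 3 D2C7-IT tumours (86.7 ± 5.55 CPM), a fold change of 0.19 ± 0.11 (adjusted p = 1).

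The enzyme genes Kmo and Naaa are carried by type 1 dendritic cells, among others, and act on kynurenine and on lipid amides. Kmo averaged 0.961 ± 0.31 CPM in combination tumours, 0.518 ± 0.345 in D2C7-IT tumours, 4.59 ± 4.89 in aCD40 tumours, against 2.35 ± 1.67 in vehicle tumours at day 3. Kmo averaged 0.338 ± 0.16 CPM in combination tumours, 1.64 ± 0.358 in D2C7-IT tumours, 0.497 ± 0.147 in aCD40 tumours, against 0.493 ± 0.448 in vehicle tumours at day 0. At day 0 its D2C7-IT tumours lay above the vehicle tumours (1.69 ± 0.80, adjusted p = 1), and its combination tumours lay below the D2C7-IT tumours (-2.26 ± 0.82, adjusted p = 1). In aCD40 tumours every day 3 value exceeded every day 0 value (3.20 ± 0.84, edgeR adjusted p = 0.271, DESeq2 adjusted p = 0.0104), and 1.84 higher without the Egfr-high library. Naaa averaged 27.8 ± 4.23 CPM in combination tumours, 27.2 ± 8.5 in D2C7-IT tumours, 39.1 ± 10.5 in aCD40 tumours, against 41.1 ± 6.85 in vehicle tumours at day 3. Its combination tumours lay below the aCD40 and vehicle tumours (against vehicle -0.56 ± 0.23, adjusted p = 0.145, and -0.23 without the Egfr-high libraries).

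Mreg, the vesicle transport protein melanoregulin, is a marker of mature migratory dendritic cells. Mreg at day 3 was at 5.01, 11.4 and 8.78 CPM in combination tumours, 9.66, 9.01 and 4.98 in D2C7-IT tumours, 8.89, 5.12 and 3.31 in aCD40 tumours, against 4.12, 3.01 and 3.19 in vehicle tumours. Mreg at day 0 was at 4.21, 7.6 and 6.66 CPM in combination tumours, 6.37, 7.11 and 8.19 in D2C7-IT tumours, 3.18, 4.73 and 5.54 in aCD40 tumours, against 3.45, 2.87 and 4.72 in vehicle tumours. At day 3 the combination and the D2C7-IT tumours all exceeded the vehicle tumours, and at day 0 the D2C7-IT tumours did. The log2 fold change against vehicle was 1.29 ± 0.38 for the combination at day 3 (edgeR adjusted p = 0.109, DESeq2 adjusted p = 0.023). It was 1.19 ± 0.38 for D2C7-IT at day 3 (adjusted p = 0.0823, DESeq2 adjusted p = 0.0255) and 0.97 ± 0.38 for D2C7-IT at day 0 (adjusted p = 0.867). The Egfr-high vehicle libraries were not high in Mreg, and without the Egfr-high libraries the day 3 values were 1.06 and 0.95. Socs2, a suppressor of cytokine signalling induced in maturing dendritic cells and in many other cells, averaged 25.3 ± 9.57 CPM in combination tumours, 30 ± 13.3 in D2C7-IT tumours, 16.6 ± 1.79 in aCD40 tumours, against 14.6 ± 3.25 in vehicle tumours at day 3. Its fold changes against vehicle there were 0.79 ± 0.32 in the combination and 1.04 ± 0.32 in D2C7-IT (adjusted p = 0.148 and 0.0808), and 0.49 and 0.72 without the Egfr-high libraries.

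Among cytokines, Il27 (p28) and Ebi3 encode the subunits of interleukin 27. Il27 was at 0.828, 0.962 and 0.566 CPM in combination tumours, 0.0821, 0.0672 and 0.403 in D2C7-IT tumours, 2.7, 1.04 and 0.417 in aCD40 tumours, against 0.0814, 2.36 and 2.62 in vehicle tumours at day 3. At day 0 Il27 was at 0.38, 0.52 and 0.389 CPM in combination tumours, 0.742, 0.769 and 0.5 in D2C7-IT tumours, 0.374, 0.352 and 0.726 in aCD40 tumours, against 0.284, 0.298 and 0.0882 in vehicle tumours. At day 0 every treated group lay above vehicle without overlap, and at day 3 the combination lay above D2C7-IT (log2 fold change 2.00 ± 0.87, adjusted p = 1). D2C7-IT against vehicle at day 3 gave -3.10 ± 0.89 (edgeR adjusted p = 0.08, DESeq2 adjusted p = 0.00943) and reversed to 1.25 without the Egfr-high libraries, against 1 vehicle tumour with 3 reads. Ebi3 averaged 2.86 ± 0.204 CPM in combination tumours, 1.95 ± 0.32 in D2C7-IT tumours, 4.7 ± 3.02 in aCD40 tumours, against 4.21 ± 2.19 in vehicle tumours at day 3. Ebi3 averaged 2.66 ± 2.13 CPM in combination tumours, 5.9 ± 1.48 in D2C7-IT tumours, 2.25 ± 0.84 in aCD40 tumours, against 2.1 ± 1.5 in vehicle tumours at day 0. As with Il12b, the D2C7-IT tumours of day 0 all exceeded the vehicle tumours (1.48 ± 0.58, adjusted p = 0.891) and all D2C7-IT tumours of day 3 lay below those of day 0 (-1.59 ± 0.58, adjusted p = 1).

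Il12a, the p35 subunit that joins p40 in interleukin 12, averaged 1.55 ± 1.23 CPM in combination tumours, 2.93 ± 2.45 in D2C7-IT tumours, 1.35 ± 0.781 in aCD40 tumours, against 0.721 ± 0.46 in vehicle tumours at day 3. Il12a averaged 1.43 ± 0.884 CPM in combination tumours, 1.13 ± 0.92 in D2C7-IT tumours, 1.92 ± 1.01 in aCD40 tumours, against 1.72 ± 1.01 in vehicle tumours at day 0. Its groups overlapped with vehicle in every comparison, and its order of groups differed from that of Il12b, whose day 3 mean was lowest in the D2C7-IT group. Il15 and Il15ra, the cytokine and the receptor chain that presents it to T and NK cells, were highest in the Egfr-high libraries (8.3 to 16.9 and 13.7 to 32 CPM), against 1.04 to 3.22 and 4.8 to 13.3 CPM in the other 21. Both were higher in all combination tumours than in all D2C7-IT tumours of day 3, by 0.88 ± 0.72 and 0.60 ± 0.44 (adjusted p = 1 for both). Both were also higher in combination tumours of day 3 than of day 0, by 0.53 ± 0.71 and 0.52 ± 0.44.

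**Figure D4:**
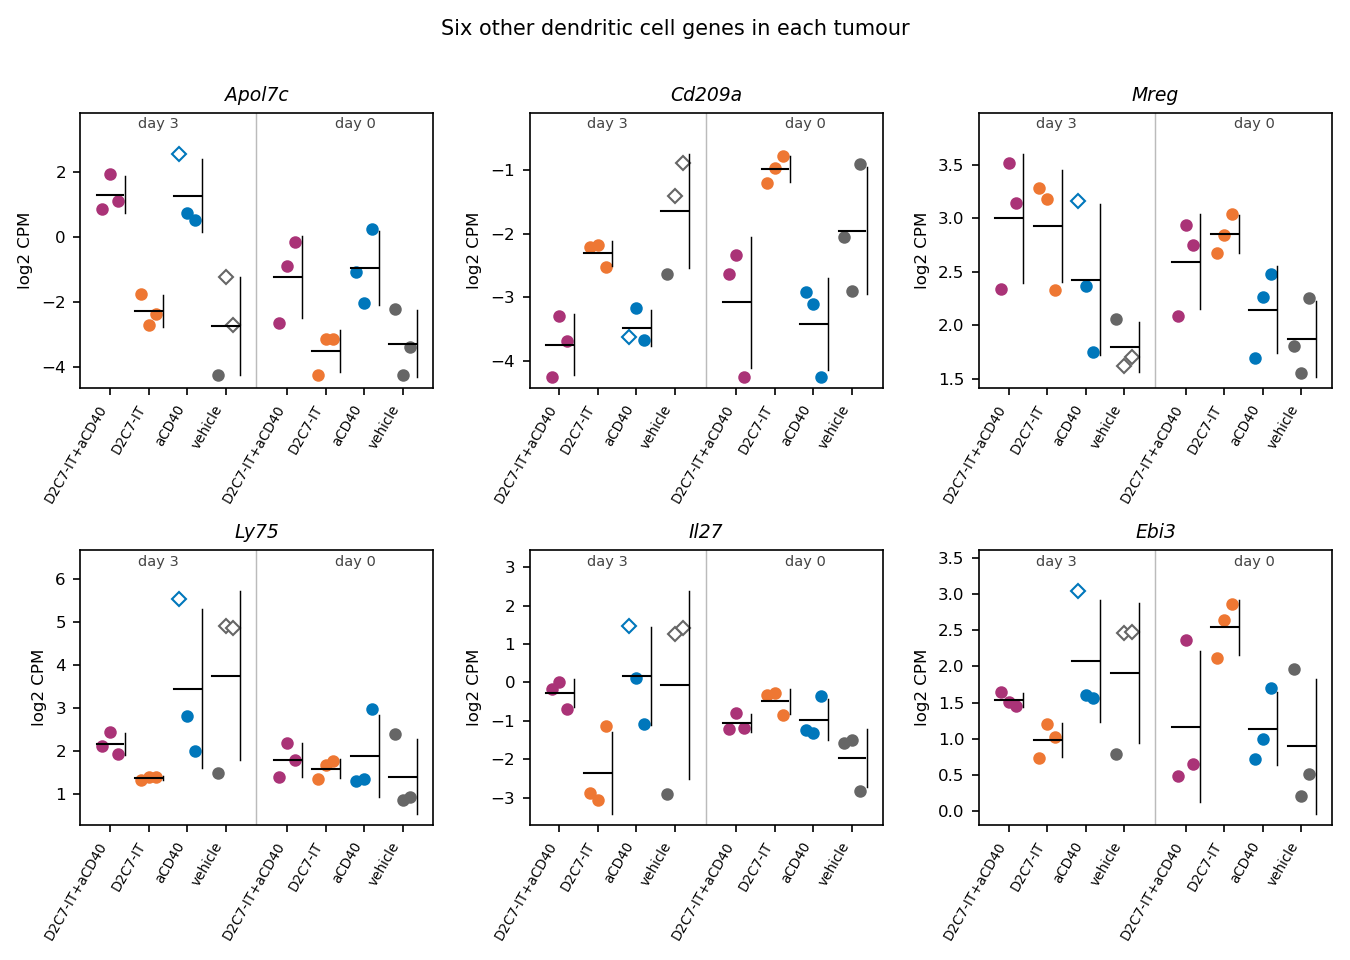
Level of 6 further members in each tumour, as log2 CPM (prior count 2), with day 3 groups left of the grey line and day 0 groups right of it, group means as horizontal lines, 1 SD to each side as vertical bars (n = 3) and Egfr-high libraries as open diamonds. All 6 day 3 tumours given aCD40 lie above the 6 others for Apol7c and below them for Cd209a, while Ly75, Il27 and Ebi3 are highest at day 3 in the 3 Egfr-high libraries.

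Across all 32 members, edgeR called 0 at an adjusted p under 0.05 in each of the 6 comparisons with vehicle. Of all genes tested it called 0.0404% for the combination at day 3 (9 genes), 0.0808% for D2C7-IT at day 0 (18 genes) and 0% in the other 4. For the combination against vehicle at day 3, 5 members were higher and 6 lower at an unadjusted p under 0.05, where 7.09% of all genes were higher and 16.9% lower. Without the Egfr-high libraries 7 were higher and 0 lower (5.54% and 1.43%). DESeq2 called 5 (7.77% of genes; Apol7c and Mreg higher, Cd209a, Clec9a and Xcr1 lower). For D2C7-IT at day 3 the counts were 5 higher and 9 lower (9.96% and 18.3% of all genes), and 1 and 0 without the Egfr-high libraries (4.61% and 1.06%). DESeq2 called 9 (13% of genes), of which Mreg, Nfil3 and Socs2 were higher and Ccr9, Il15, Il27, Irf4, Kmo and Ly75 lower. For aCD40 at day 3 they were 1 higher and 2 lower (1.52% and 0.386%), with Apol7c called by DESeq2 (0.154% of genes), and 7 higher and 0 lower without the Egfr-high libraries (2.33% and 0.248%). At day 0 they were 2 higher and 0 lower for the combination (1.86% and 1.17%), 6 and 0 for D2C7-IT (3.61% and 0.911%) and 2 and 1 for aCD40 (0.929% and 0.431%). DESeq2 called Il12b for the combination (0.122% of genes) and for D2C7-IT (0.623%) at day 0, and 0 members for aCD40 (0.0813%). Leaving out vehicle day 3 replicate 1, the only vehicle library of that day that is not Egfr-high, took the edgeR calls at day 3 to 13 members for the combination and 17 for D2C7-IT, where 30.1% and 35.7% of all genes were called. Leaving out D2C7-IT day 3 replicate 3 took them to 2 members for D2C7-IT (Socs2 and Nfil3, 1.88% of genes).

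Counts of members whose groups did not overlap read differently. All 3 D2C7-IT tumours of day 0 exceeded all 3 vehicle tumours for 11 of 32 members (Wdfy4, Cd83, Mreg, Il12b, Il15ra, Il27, Ebi3, Kmo, Ccr9, Tmem123 and Nfil3) and lay below for 0, where 11% of all genes lay above and 6.6% below. The combination of day 3 exceeded vehicle for 6 members (Zbtb46, Cd83, Mreg, Il12b, Apol7c and Nfil3, 8.06% of genes) and lay below for 2 (Cd209a and Naaa, 7.45%). At day 0 it exceeded vehicle for 2 (Il12b and Il27, 5.45%) and lay below for 0 (4.02%). D2C7-IT at day 3 had 1 above (Mreg, 7.43%) and 1 below (Ly75, 5.78%). aCD40 had 2 above (Cd83 and Apol7c, 1.58%) and 1 below (Cd209a, 1.13%) at day 3, and 3 above (Il12b, Il27 and Apol7c, 3.99%) and 2 below (Cd209a and Fscn1, 3.47%) at day 0. The 6 comparisons share their vehicle tumours within a day, so their values are not independent of each other. The monocyte and macrophage markers, of which 7 of 8 were higher, summed to 290 to 380 CPM in D2C7-IT tumours of day 0 and to 124 to 321 CPM in vehicle tumours, and their part in the 11 members was not tested. Of 4 tested neutrophil markers edgeR called S100a8, S100a9 and Cxcr2 higher in the same comparison, and the list of 6 summed to 36.7 to 41.7 CPM in D2C7-IT tumours and 11.9 to 31 CPM in vehicle tumours, with Ly6g at 0 in all 3 vehicle tumours. Of 5 endothelial markers it called Vwf (250 to 288 CPM summed in D2C7-IT tumours and 125 to 159 CPM in vehicle tumours), and the part of these cells in the 11 members was not tested either. These marker calls did not hold together when 1 library was left out. With each of the 6 libraries of this comparison left out in turn, edgeR called 0 to 2 genes in all, against 18 with every library.

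The median log2 fold change over the 32 members at day 3 was -0.51 for the combination, -0.77 for D2C7-IT and 0.11 for aCD40 against vehicle, beside 0.01, 0.02 and 0.02 over all genes. Without the 3 Egfr-high libraries these medians were 0.76, 0.55 and 0.82, each against 1 vehicle tumour. At day 0 the medians were 0.16 for the combination, 0.39 for D2C7-IT and 0.18 for aCD40, beside 0.02, -0.01 and 0.00 over all genes. The direction of the day 3 medians of the combination and of D2C7-IT turned with the Egfr-high vehicle libraries, while the day 0 medians rest on none of them. Tumours of day 0 differed as well. Cell cycle markers summed to 125, 26.4 and 10.2 CPM in vehicle, 70.4 to 85.3 in D2C7-IT, 11 to 124 in aCD40 and 16.8 to 50.2 in combination tumours. The mean log2 CPM of the members was 2.33, 1.67 and 1.63 in these vehicle tumours. The part of this spread in the day 0 medians was not tested.

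**Figure D5:**
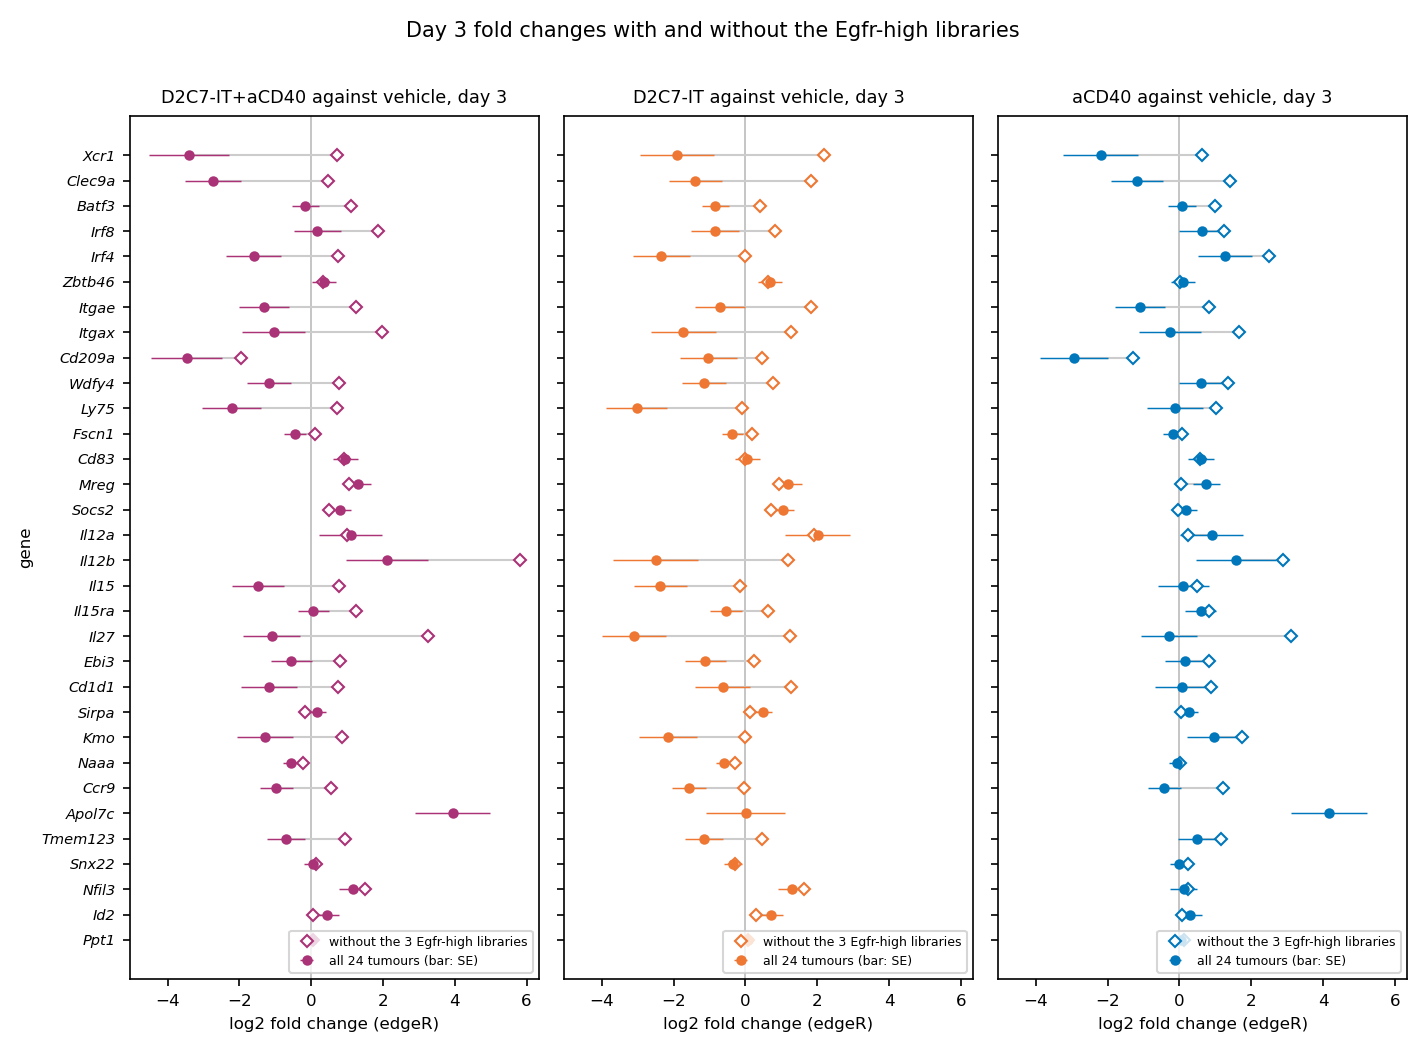
Log2 fold change of each member against vehicle at day 3 for the combination, D2C7-IT and aCD40, from edgeR with all 24 tumours (filled circles, bars give the SE) and without the 3 Egfr-high libraries (open diamonds). Apol7c has no open diamond, since its 1 remaining vehicle library holds 0 reads, and the medians over members are -0.51 with and 0.76 without these libraries for the combination, and -0.77 with and 0.55 without them for D2C7-IT.

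The combination was also set against each single agent. At day 3 the combination exceeded D2C7-IT without overlap for 11 of 32 members (Batf3, Irf8, Ly75, Cd83, Il12b, Il15, Il15ra, Il27, Ebi3, Apol7c and Tmem123) and lay below for 1 (Cd209a), where 6.27% of all genes lay above and 5.35% below. None of these 6 tumours is an Egfr-high library. edgeR called 0 members and 0% of genes, with 4 members higher and 1 lower at an unadjusted p under 0.05 (1.44% and 1.01% of genes), and DESeq2 called 0 members (0.0135%). The T cell markers, 7 of 8 higher, summed to 28.5 to 41.5 CPM in the combination and 10.4 to 28.8 CPM in D2C7-IT, and the NK cell markers, 6 of 6 higher, to 5.5 to 7.88 and 0.794 to 3.1 CPM. The monocyte and macrophage markers, 7 of 8 higher, summed to 231 to 320 and 201 to 256 CPM. The endothelial markers, 5 of 5 higher and 4 of them at an unadjusted p under 0.05, summed to 206 to 303 CPM in the combination and 161 to 196 CPM in D2C7-IT, and the B cell markers, 5 of 5 higher, to 4.15 to 10.8 and 2.14 to 3.7 CPM. No marker of the 5 lists was at 0 in every tumour of either group, and the part of these cells in the 11 members was not tested. At day 0 the combination lay below D2C7-IT for 7 members (Xcr1, Clec9a, Itgae, Cd209a, Wdfy4, Kmo and Ccr9, 8.53% of genes) and above for 2 (Apol7c and Ppt1, 6.07%). There 1 was higher and 3 lower at an unadjusted p under 0.05 (1.17% and 1.6%), with 0 called by edgeR (0% of genes) or DESeq2 (0.0948%). The monocyte and macrophage markers, 8 of 8 lower there, summed to 173 to 259 CPM in the combination and 290 to 380 CPM in D2C7-IT, the neutrophil markers, 4 of 4 tested lower, to 15.8 to 29.9 and 36.7 to 41.7 CPM, and the cell cycle markers, 6 of 6 lower, to 16.8 to 50.2 and 70.4 to 85.3 CPM. No marker of these lists was at 0 in every tumour of either group, and their part in the 7 members was not tested.

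Against aCD40 alone, the combination exceeded it at day 3 for Zbtb46 and Nfil3 (4.97% of genes) and lay below for Naaa and Ccr9 (4.78%), with 1 member higher and 7 lower at an unadjusted p under 0.05 (3.66% and 7.42%), and 3 higher and 1 lower without the Egfr-high library (5.18% and 2.02%). edgeR called 0 members and 0% of genes, and DESeq2 called Irf4 (0.998% of genes, log2 fold change -2.86 ± 0.80, DESeq2 adjusted p = 0.0234), whose fold change was -1.75 without the Egfr-high library. At day 0 no member separated the combination from aCD40 (0 above and 0 below, where 2.67% and 1.92% of genes did). There 0 members had an unadjusted p under 0.05 (0.516% of genes higher and 0.368% lower), with 0 called by edgeR (0% of genes) or DESeq2 (0.0316%). The member with the smallest p there was Il12b, at 1.61 ± 1.12 (adjusted p = 1).

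Days were compared within each treatment. In vehicle tumours 15 members were higher and 1 lower at day 3 at an unadjusted p under 0.05 (22% and 8.15% of genes), edgeR called 0 (0% of genes) and DESeq2 called 9 (10.3% of genes), all higher. The groups overlapped for every member (6.49% of genes lay above and 6.65% below), and the member median was 1.04 with the Egfr-high libraries and -0.20 without them. Without vehicle day 3 replicate 1, edgeR called 18 members and 41.1% of genes, and without the Egfr-high libraries 0 members had an unadjusted p under 0.05 (0.619% of genes higher and 1.03% lower). In aCD40 tumours 9 members were higher and 0 lower (9.52% and 2.1%), with 0 called by edgeR (0.0583% of genes) and 2 by DESeq2 (Irf4 and Kmo, 0.551%), and 2 were higher and 0 lower without the Egfr-high library (2.56% and 1.41%). Kmo, Ccr9 and Apol7c lay above without overlap and 0 members below (5.05% and 5.81% of genes). In D2C7-IT tumours 0 were higher and 3 lower (2.45% and 1.06%), 0 were called by edgeR (0.00449% of genes) or DESeq2 (0.122%). Cd209a, Cd83, Il12b, Il27, Ebi3 and Kmo lay below without overlap and Apol7c above (6.36% and 4.96%). In D2C7-IT tumours the monocyte and macrophage markers, 7 of 8 lower, summed to 201 to 256 CPM at day 3 and 290 to 380 CPM at day 0, the neutrophil markers, 4 of 4 tested lower, to 21.6 to 34.7 and 36.7 to 41.7 CPM, and the endothelial markers, 5 of 5 lower, to 161 to 196 and 250 to 288 CPM. Of these markers Ly6g was at 0 in all 3 D2C7-IT tumours of day 3, and the part of these cells in the 6 members was not tested. In combination tumours 2 were higher and 0 lower (3.15% and 1.51%), 0 were called by edgeR (0% of genes) or DESeq2 (0.28%). Irf8, Itgax, Il15, Il15ra, Il27, Kmo and Apol7c lay above without overlap and 0 members below (7.07% and 6.49%). There the monocyte and macrophage markers, 8 of 8 higher, summed to 231 to 320 CPM at day 3 and 173 to 259 CPM at day 0. The T cell markers, 8 of 8 higher, summed to 28.5 to 41.5 and 6 to 20.1 CPM, and the B cell markers, 5 of 5 higher, to 4.15 to 10.8 and 1.38 to 4.05 CPM. Of 4 tested neutrophil markers 1 was higher. The part of these cells in the 7 members was not tested. The D2C7-IT and combination groups hold no Egfr-high library, and Il27 and Kmo lay below their day 0 values at day 3 in D2C7-IT tumours and above them in combination tumours.

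The difference of each treatment's effect over vehicle between the days was tested in the same model. For D2C7-IT, 2 members were higher and 11 lower at an unadjusted p under 0.05 (5.38% and 12.2% of genes), edgeR called 0 (0% of genes) and DESeq2 called Il12b and Il27 (0.416%). The edgeR count was 12 without vehicle day 3 replicate 1 (16.1% of genes). For the combination the counts were 0 and 2 (2.21% and 5.84%), and for aCD40 they were 0 and 0 (0.682% and 0.539%), with 0 called by edgeR (0% of genes in each) or DESeq2 (0.0452% and 0.0316%). Without the Egfr-high libraries the counts at an unadjusted p under 0.05 were 0 and 0 for D2C7-IT (1.77% and 0.853%), 2 higher and 0 lower for the combination (2.48% and 0.853%) and 0 and 0 for aCD40 (1.17% and 0.516%). The value furthest from 0 among the members was that of Il12b under D2C7-IT at -7.48 ± 1.79.

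Tumours given aCD40, alone or with D2C7-IT, were then set against the tumours not given it (D2C7-IT alone or vehicle), a comparison chosen after the data were seen. At day 3 edgeR called 0 members and 0.00898% of genes (2 genes), with 3 members higher and 3 lower at an unadjusted p under 0.05 (2.32% and 0.803% of genes), and DESeq2 called Apol7c and Il12b (0.199%). Apol7c was closest, at a log2 fold change of 4.05 ± 0.74 (edgeR adjusted p = 0.0716, DESeq2 adjusted p = 1.21e-05). It was followed by Cd209a at -2.69 ± 0.70 (adjusted p = 0.563) and Il12b at 3.09 ± 0.84 (adjusted p = 0.71, DESeq2 adjusted p = 0.0252). Cd83 was at 0.75 ± 0.25 (adjusted p = 1), Xcr1 at -1.85 ± 0.75 and Clec9a at -1.26 ± 0.53 (adjusted p = 1 for both). Without the Egfr-high libraries the values were -1.85 for Cd209a, 3.76 for Il12b, 0.74 for Cd83, -0.44 for Xcr1 and 0.04 for Clec9a, and 12 members were higher and 0 lower at an unadjusted p under 0.05 (4.31% and 0.871% of genes). All 6 tumours given aCD40 exceeded the 6 others for Cd83 and Apol7c, among 28 such genes (0.126% of those tested), and lay below for Cd209a, among 6 such genes (0.0269%). At day 0 edgeR again called 0 members (0% of genes), with Apol7c higher at 3.18 ± 0.82 and Cd209a lower at -2.38 ± 0.64 at an unadjusted p under 0.05 (1 member in each direction, 1.62% and 1.14% of genes). DESeq2 called Apol7c there (adjusted p = 0.0418, 0.0903% of genes). No member separated all 6 tumours at day 0, where 0.251% of genes lay above and 0.13% below. At day 3 all 5 B cell markers were higher at an unadjusted p under 0.05, and they summed to 4.15 to 10.8 CPM in combination, 2.14 to 3.7 CPM in D2C7-IT, 18.1 to 251 CPM in aCD40 and 1.28 to 13.7 CPM in vehicle tumours. No B cell marker was at 0 in every tumour of a group, and their part in the Cd83 value was not tested. Without the Egfr-high libraries 24 of 32 members were higher (median log2 fold change 0.50). So were 7 of 8 T cell (2.19), 6 of 6 NK cell (2.08), 5 of 5 B cell (3.30), 7 of 8 monocyte and macrophage (0.49) and 5 of 8 microglia markers (0.08). The part of these cells in the member values was not tested.

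Other dendritic cell genes were read from lists of type 1, type 2, mature and plasmacytoid markers and of growth factors and receptors, chosen with earlier results of these data known. Of 20 mature dendritic cell genes, edgeR called 1 in the comparison of aCD40 given with not given at day 3, namely Ccl22, the chemokine that mature dendritic cells use to attract regulatory T cells. Ccl22 was at 16.6, 32.7 and 14 CPM in combination tumours, 2.33, 1.21 and 0.846 in D2C7-IT tumours, 44.5, 16 and 17.6 in aCD40 tumours, against 0.461, 4.6 and 5.14 in vehicle tumours at day 3. Ccl22 at day 0 was at 4.37, 7.23 and 7.35 CPM in combination tumours, 1.1, 1.97 and 2.94 in D2C7-IT tumours, 7.1, 4.86 and 15.5 in aCD40 tumours, against 0.923, 0.488 and 0.529 in vehicle tumours. All 6 tumours given aCD40 exceeded the 6 others at both days, and Ccl22 was 3.39 ± 0.51 higher on the log2 scale at day 3 (adjusted p = 0.0391) and 2.73 ± 0.51 at day 0 (adjusted p = 0.269). Without the Egfr-high libraries the day 3 value was 4.54 (adjusted p = 0.0156), but the call was lost with a replicate block (adjusted p = 0.0873), with only the groups compared (0.641) and when any 1 library of day 3 was left out other than vehicle replicate 1 or aCD40 replicate 3 (10 of 12 libraries, fold changes 3.09 to 3.65, adjusted p 0.0208 to 0.23 over the 12). Among the 20, 18 had a positive fold change at day 3 (median 0.40, or 0.85 without the Egfr-high libraries) and 11 at day 0 (median 0.09). For D2C7-IT against vehicle the same 20 genes had a median of -0.91 at day 3 and 1.15 at day 0, with 4 and 17 positive, and the day 3 median turned to 0.77 with 16 positive without the Egfr-high libraries. edgeR called 0 of them at either day (0% of all genes at day 3 and 0.0808% at day 0). At an unadjusted p under 0.05, 1 was higher and 2 lower at day 3 (9.96% and 18.3% of all genes). At day 0, 7 were higher and 0 lower (3.61% and 0.911%). DESeq2 called Ccl17, Cd40 and Marcksl1 at day 3 (13% of genes) and 0 at day 0 (0.623%). Cd40, the receptor that the antibody binds, was at 6.06, 11.2 and 7.7 CPM in combination tumours, 1.92, 1.28 and 1.19 in D2C7-IT tumours, 35.3, 5.21 and 4.46 in aCD40 tumours, against 0.922, 12.3 and 10.7 in vehicle tumours at day 3. For Cd40, D2C7-IT against vehicle gave 2.84 ± 0.89 at day 0 (adjusted p = 0.561) and -2.45 ± 0.87 at day 3, or 0.67 without the Egfr-high libraries.

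Of 10 other type 1 genes, 9 tested type 2 genes, 9 tested plasmacytoid genes and 15 growth factors and receptors, edgeR called 0 in each comparison with vehicle. At an unadjusted p under 0.05 in D2C7-IT tumours of day 3, 0, 1, 0 and 1 genes of these lists were higher and 1, 4, 1 and 4 lower, and DESeq2 called 0, 5, 1 and 3, where 9.96% and 18.3% of all genes had such a p and DESeq2 called 13%. In combination tumours of day 3, 0, 1, 1 and 2 were higher and 2, 4, 0 and 1 lower, with 4 type 2 genes called by DESeq2 (Clec10a, Notch2, Klf4 and Il1rl1) and 0 of the other lists (7.09% and 16.9% of all genes, and 7.77% by DESeq2). The genes named by DESeq2 calls in these lists were chosen after their values were seen. DESeq2 also called Notch2, Klf4 and Il1rl1 between the days in vehicle tumours (10.3% of genes). The day 3 vehicle group, used in both comparisons, holds the Egfr-high replicates 2 and 3. In aCD40 tumours of day 3, 1, 0, 1 and 1 were higher and 0 lower, with Btla called by DESeq2 (1.52% and 0.386% of all genes, and 0.154% by DESeq2). In D2C7-IT tumours of day 0, 0, 2, 0 and 4 were higher and 0 lower (3.61% and 0.911% of all genes). In combination tumours of day 0, 0, 1, 0 and 1 were higher and 0, 1, 0 and 0 lower (1.86% and 1.17%). In aCD40 tumours of day 0, 0, 1, 0 and 0 were higher and 0 lower (0.929% and 0.431%). DESeq2 called 0 genes of these lists at day 0 (0.623%, 0.122% and 0.0813% of all genes). Against vehicle at day 3, the type 2, plasmacytoid and growth factor lists had medians of -0.02, -0.35 and -0.12 in combination tumours. They were -0.32, -0.37 and -0.64 in D2C7-IT tumours and 0.04, 0.19 and 0.28 in aCD40 tumours. Without the Egfr-high libraries, against 1 vehicle tumour, the combination medians were 0.09, 0.64 and 1.75. Those of D2C7-IT turned to 0.29, 0.43 and 0.82, and those of aCD40 were 0.49, 0.35 and 0.39. At day 3 the 10 other type 1 genes had medians of -0.50 in the combination, -0.97 in D2C7-IT and 0.07 in aCD40 against vehicle, with 2, 1 and 5 positive, and of 0.36, -0.04 and 0.09 without the Egfr-high libraries. At day 0 the medians were -0.04, 0.19 and 0.08. Btla, an inhibitory receptor shared with lymphocytes, had the smallest p among them for aCD40 at both days (2.11 ± 0.53 at day 3, 2.52 without the Egfr-high libraries, and 0.93 ± 0.53 at day 0). Tlr3, a sensor of double-stranded RNA, had it for D2C7-IT (-1.07 ± 0.41 at day 3, 0.00 without the Egfr-high libraries, and 0.71 ± 0.41 at day 0). Among growth factors and receptors, Flt3, the receptor for the main dendritic cell growth factor, stood at 10.3, 11.3 and 14.7 CPM in combination tumours, 5.53, 13.3 and 9.11 in D2C7-IT tumours, 12.1, 11.1 and 9.3 in aCD40 tumours, against 8.76, 6.89 and 5.52 in vehicle tumours at day 3. All combination and all aCD40 tumours of day 3 exceeded the vehicle tumours for Flt3, by 0.78 ± 0.29 and 0.62 ± 0.28 (adjusted p = 0.124 and 0.998), and by 0.50 and 0.24 without the Egfr-high libraries.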

How the data were processed

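RNA of 24 unsorted, flash-frozen tumours was measured by poly(A) sequencing with a kit that does not mark strand, per the labels' protocols. The deposited values are raw counts per gene (49315 Ensembl genes, GRCm38), made by the authors with bcl2fastq 2.17, Trimmomatic 0.36, STAR 2.5.2b and featureCounts (Subread 1.5.2), per the submitters' processing notes. The 6 tables hold 36 columns, of which 12 repeat a tumour and 0 differ. Symbols came from GENCODE M21 (49056 genes named).

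The members and lists were chosen with earlier results of these data known. Genes were filtered with filterByExpr and all 24 libraries were fitted together in edgeR 4.0.16 (R 4.3.3; TMM factors, robust quasi-likelihood, 16 residual degrees of freedom, biological coefficient of variation 0.41). The Benjamini-Hochberg method adjusted p over 22280 genes, a gene was called where that p was under 0.05, and the fit was tested on simulated data. Log2 CPM used a prior count of 2. The script steps and plots used Python 3.11.15, pandas 2.3.3 and matplotlib 3.10.9. Values in every tumour are given for the 6 contrasted genes, for called members and for the 2 members of smallest p in each comparison with vehicle. Alternatives were DESeq2 1.42.0, RLE factors, raw library totals, no filter, only the groups compared, a replicate block, each library left out in turn and, added after seeing the data, leaving out the 3 Egfr-high libraries. Intervals of count ratios are exact at 95% and cover counting error only. The nearest pair of replicates differed by a chi-square of 28.19 per degree of freedom, so each tumour counts as 1 replicate.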

Additional observations from a re-analysis of the deposited data

How the results depend on the processing

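RLE factors changed no call, and raw library totals, tried on the maturation minus type 1 differences alone, moved none of them beyond the replicate spread. The number of members called by edgeR stayed at 0 with no filter, with only the groups compared, with the replicate block and without the 3 Egfr-high libraries. DESeq2 called 5, 9 and 1 members at day 3 (combination, D2C7-IT and aCD40 against vehicle), 1 each for the combination and D2C7-IT at day 0, 1 for the combination against aCD40 at day 3, 9 and 2 between the days in vehicle and aCD40 tumours, 2 for the between-day difference of D2C7-IT, and 2 and 1 for aCD40 given against not given at days 3 and 0. Among all genes DESeq2 called 1720, 2874 and 34 at day 3 and 27, 138 and 18 at day 0 (same order). It called 3 and 21 genes for the combination against D2C7-IT and 221 and 7 against aCD40 (days 3 and 0). Between days it called 62, 27, 122 and 2271 (combination, D2C7-IT, aCD40, vehicle), for the between-day differences 10, 92 and 7, and for aCD40 given 44 and 20 (days 3 and 0).

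With only the groups compared, edgeR called 0 genes for the combination against vehicle at day 3, 87 for D2C7-IT at day 0, 19 for the combination against D2C7-IT at day 3, 37 and 0 between days for D2C7-IT and aCD40, and 0 for aCD40 given at day 3. With no filter it called 3 for the combination against aCD40 at day 3, 7 between days for aCD40, 1 for the aCD40 between-day difference and 6 for aCD40 given at day 3. Without the 3 Egfr-high libraries it called 0 for the combination at day 3, 2, 43 and 9 at day 0 (combination, D2C7-IT, aCD40), 2 for the combination against D2C7-IT at day 3, 2 and 0 between days for the combination and aCD40, and 5 at each day for aCD40 given. Il27 in D2C7-IT against vehicle tumours at day 3 reversed to 1.25 there. The maturation minus type 1 difference of vehicle tumours of day 3 was 4.81 without the Egfr-high libraries. At a prior count of 0.5 the maturation minus type 1 difference of aCD40 tumours of day 0 was 5.17. The causes were not tested.

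Replicate numbers were not taken as pairs, since the labels name no pairing. Correlations of deviations exceeded 0.1 in 9 of 42 pairs of same-numbered tumours. These pairs reuse the same tumours, so the count cannot show whether pairing is absent. With a replicate block edgeR called 9 genes for D2C7-IT at day 0, 3 and 1 for the between-day differences of aCD40 and the combination, and 0 for aCD40 given at day 3.

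Leaving out each library in turn, members called by edgeR ranged from 0 to 17 for D2C7-IT and 0 to 13 for the combination against vehicle at day 3, 0 to 18 between days in vehicle tumours and 0 to 12 for the between-day difference of D2C7-IT, each highest without vehicle day 3 replicate 1. They ranged from 0 to 1 between days in aCD40 tumours and for aCD40 given at day 3, both without aCD40 day 3 replicate 3, and stayed at 0 in the other 13 comparisons. Genes called ranged from 0 to 6925, 0 to 8203 and 0 to 1364 at day 3 (combination, D2C7-IT, aCD40 against vehicle), 0 to 2 for D2C7-IT and 0 to 4 for aCD40 at day 0, 0 to 88 for the combination against aCD40 at day 3, and 0 to 42, 0 to 14, 0 to 94 and 0 to 9451 between days (combination, D2C7-IT, aCD40, vehicle). For the between-day differences they ranged from 0 to 3, 0 to 3703 and 0 to 4 (combination, D2C7-IT, aCD40), and for aCD40 given from 0 to 18 at day 3 and 0 to 1 at day 0.
Fold changes (log2) against vehicle ranged, with 1 library left out, from -4.29 to -2.93 for Cd209a (combination, day 3), from -4.43 (without D2C7-IT replicate 3) to -2.66 for Il27 and from -3.54 to -2.62 for Ly75 (both D2C7-IT, day 3), and from 4.52 to 5.66 for Il12b in D2C7-IT and 3.89 to 5.21 in combination tumours of day 0.
Low counts limit Xcr1, Clec9a, Cd209a, Il27 and Apol7c, and 3 tumours a group limit every test.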
